A study of Mus musculus with 24 samples.

Results

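Hepatocytes take organic anions up from portal blood, modify them and export them either back to the blood or into bile, and 10 genes that encode carriers and pumps of this route were examined in mouse liver. They were the uptake carriers Slco1a1, Slco1a4, Slco1b2 and Slco2b1, the pumps Abcc3 and Abcc4 of the membrane that faces the blood, and the pumps Abcb1a, Abcb4, Abcc2 and Abcg2 of the membrane that faces bile. A gene was a member if the gene name of a non-control probe equalled its symbol. This gave 17 probes, all 17 of them tested, and 10 of the 22088 tested genes. Total liver RNA came from 24 female mice of a mixed sv129/C57 strain that were 8 weeks old, each hybridised to its own 1-colour Agilent array. The KO FB1 mice lacked both liver X receptors, LXRα (Nr1h3) and LXRβ (Nr1h2), and were given fumonisin B1 at 10 mg per kg of body weight daily for 1 month. KO control mice lacked the same receptors and were given water. WT FB1 mice carried both receptors and were given the same toxin dose, and WT control mice carried both and were given water. Each group had 6 mice. The labels do not say which part of either gene was removed and name no Cre driver.

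Proteins of the OATP family, encoded by the Slco genes, exchange anions across the sinusoidal membrane and bring bile acids, bilirubin, steroid conjugates, drugs and peptide toxins into the hepatocyte. ABC transporters use ATP to move conjugates, phospholipid and drugs out of the cell. In rodents many of these genes respond to the nuclear receptors CAR and PXR and to the stress factor NRF2, and some differ between the sexes. Fumonisin B1 is a mycotoxin of maize moulds that blocks ceramide synthases, and LXRs are receptors for oxidised cholesterol.

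Values are log2 of the processed signal relative to each array's own 75th percentile over non-control spots, so that 0 stands for a spot as bright as that percentile. Since probes differ in brightness for the same amount of RNA, values of different genes are not set against each other. A gene is read by its brightest tested probe, and every probe used for a member was well above background on all 24 arrays. Differences are FB1 minus control or KO minus WT, given ± standard error from a limma fit of all 24 arrays, and a gene was called at a Benjamini-Hochberg adjusted p under 0.05 over the 22088 genes. On the arrays 58.7% to 64.5% of spots stood well above background, 0 spots were saturated, and arrays of a group correlated at 0.984 to 0.994. The deleted genes matched the labels: Nr1h3 lay between -5.13 and -2.56 on KO arrays and between 4.71 and 5.06 on WT arrays, and Nr1h2 between 0.31 and 0.80 on KO arrays and between 4.02 and 4.34 on WT arrays. All 10 hepatocyte markers, such as albumin (Alb), were well above background on every array.

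FB1 in KO mice was accompanied by lower signal of all 4 uptake carriers and of 2 pumps, and by higher signal of 2 other pumps. Of the 10 genes, 6 fell, 2 rose and 2 were not called. The falls of Slco1a1 and Abcc3 were not called with the authors' deposited values, and that of Abcb1a changed sign with the mean of its probes. Among all tested genes 41.2% were called in this comparison, 24.6% lower and 16.5% higher, so that a fall was the more frequent call in the background as well. The median log2 difference was -0.44 over the 10 genes and -0.075 over all genes. Between the KO FB1 and KO control arrays there was no overlap for 4 of the 10, all of them lower with FB1, where 18.4% of all genes did not overlap. In WT mice limma called 0 of the 10 genes for FB1, against 2.89% of all genes (2.06% higher, 0.824% lower), and 1 of the 10, Slco1a4, had an unadjusted p under 0.05. The WT groups overlapped for all 10, where 2.33% of all genes did not overlap. All 10 WT differences were nevertheless below 0, with a median of -0.21 against -0.030 over all genes. That shared sign changed with scaling for 2 of them, since Abcb4 and Abcc2 stood at 0.022 and 0.025 after quantile normalisation. It did not hold within slide 3 either. There the WT difference was above 0 for Slco1b2 (0.0054), Slco2b1 (0.11), Abcb4 (0.14), Abcc2 (0.22), Abcc3 (0.011) and Abcg2 (0.18). For Slco1a1, Slco1a4, Abcb1a and Abcc4 it was below 0. All 10 genes were read on the same arrays, so their signs are not independent. A direct test of the difference between the FB1 effects, KO minus WT, called 3 genes of 10, against 9.3% of all genes (4.84% lower, 4.46% higher): Slco1b2 and Slco2b1 were lower and Abcc4 higher.

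**Figure D1:**
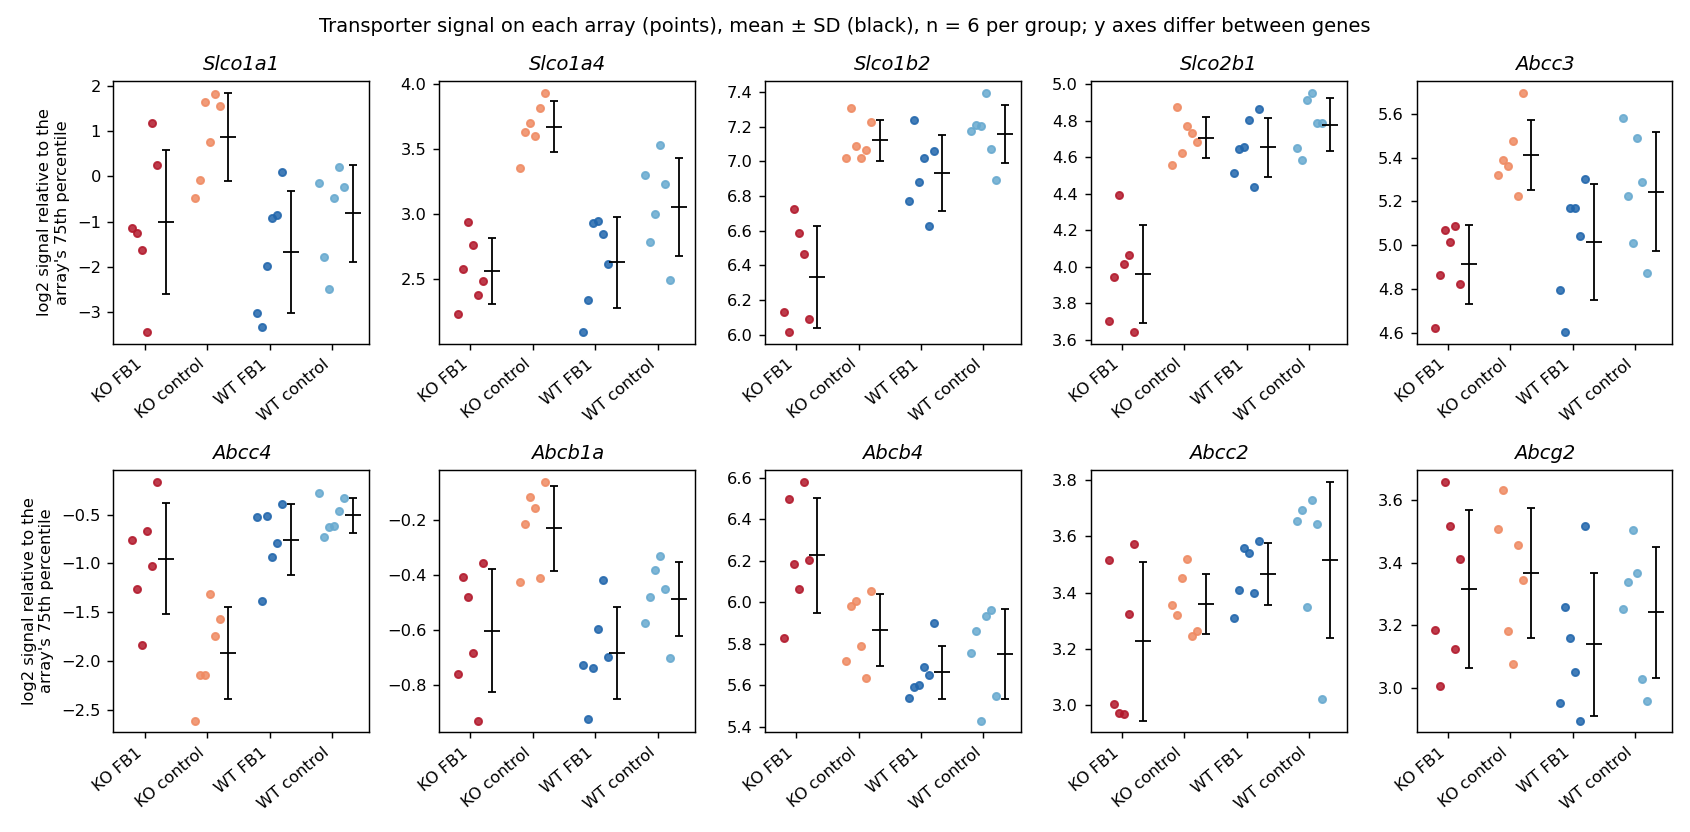
Log2 signal of the 10 transporter genes relative to each array's 75th percentile (y axis, own scale for each gene) in the 4 groups of 6 arrays (x axis). Points are arrays, and black bars are mean ± SD. All 6 KO FB1 arrays lay below all 6 KO control arrays for Slco1a4, Slco1b2, Slco2b1 and Abcc3, and the KO control arrays of Abcc4 lay below all WT control arrays.

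Among the carriers, Slco1a4 (OATP1A4) takes up bile acids and cardiac glycosides and is in mouse liver more abundant in females. Its probe lies on chromosome 6 at 141754675 to 141754734 (mm9, minus strand). KO FB1 arrays ranged from 2.24 to 2.94 with a median of 2.53, and KO control arrays from 3.36 to 3.93 with a median of 3.67. WT FB1 arrays ranged from 2.10 to 2.95 (median 2.73), and WT control arrays from 2.49 to 3.53 (median 3.12). The KO controls were thus the high group, without overlap with the KO FB1 arrays, while both FB1 groups covered nearly the same range. FB1 lowered Slco1a4 in KO mice 2.15-fold (-1.11 ± 0.17, adjusted p = 2.29e-05), and within slides 1, 2 and 3 the difference was -1.28, -0.79 and -1.26. In WT mice the difference was -0.43 ± 0.17 (adjusted p = 0.179). Without toxin the gene was 1.53-fold higher in KO than in WT mice (0.62 ± 0.17, adjusted p = 0.0138), whereas with toxin the genotypes differed by -0.065 (95% interval -0.41 to 0.28, adjusted p = 0.803). The FB1 effects themselves differed by -0.68 ± 0.24, which was not called (adjusted p = 0.0733). This was -1.16 and -1.14 within slides 1 and 3 but 0.26 within slide 2, and it was called without KO FB1 replicate 3 (adjusted p = 0.03885), without WT FB1 replicate 1 (adjusted p = 0.0301) and without WT control replicate 4 (adjusted p = 0.0325).

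Slco1b2 (OATP1B2) is the liver-restricted carrier of bilirubin and of hepatotoxins such as phalloidin in mice. The probe is at 141634476 to 141634535 on chromosome 6 (mm9, plus strand). It ranged from 6.02 to 6.72 on KO FB1 arrays (median 6.30) and from 7.02 to 7.31 on KO control arrays (median 7.08). On WT FB1 arrays it ranged from 6.63 to 7.24 (median 6.95), and on WT control arrays from 6.89 to 7.39 (median 7.19). KO FB1 arrays were the low group and did not reach the KO controls. The gene fell 1.72-fold with FB1 in KO mice (-0.79 ± 0.12, adjusted p = 2.38e-05), with -0.84, -0.47 and -1.05 within the slides, and differed by -0.23 ± 0.12 in WT mice (adjusted p = 0.327). With toxin it was 1.51-fold lower in KO than in WT mice (-0.60 ± 0.12, adjusted p = 0.000484), and without toxin the genotypes differed by -0.037 (95% interval -0.29 to 0.21). The difference of the FB1 effects was -0.56 ± 0.17 (adjusted p = 0.0386), with -0.45, -0.175 and -1.06 within the slides. That call was near the threshold: it was lost when any of 13 single arrays was left out, at adjusted p from 0.0505 to 0.0735. These were KO FB1 replicates 1, 2 and 6, KO control replicates 2, 3, 5 and 6, WT FB1 replicates 2, 4 and 6, and WT control replicates 1, 5 and 6.

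Slco2b1 (OATP2B1), a widely expressed carrier of sulfated steroids, showed the clearest dependence on genotype by adjusted p. Its probe lies on chromosome 7 at 106807008 to 106807067 (mm9, minus strand). KO FB1 arrays ranged from 3.64 to 4.39 with a median of 3.98, against 4.56 to 4.87 with a median of 4.71 on KO control arrays. WT FB1 arrays (4.44 to 4.86, median 4.65) and WT control arrays (4.58 to 4.95, median 4.79) covered nearly the same range as the KO controls. KO FB1 therefore stood apart from each of the 3 other groups. FB1 lowered it 1.68-fold in KO mice (-0.75 ± 0.11, adjusted p = 9.6e-06; -0.68, -0.42 and -1.15 within the slides), and the WT difference was -0.12 ± 0.11 (adjusted p = 0.558). In KO relative to WT mice it was 1.62-fold lower with toxin (-0.69 ± 0.11, adjusted p = 2.06e-05) and differed by -0.071 without (95% interval -0.29 to 0.15). The FB1 effects differed by -0.62 ± 0.15 (adjusted p = 0.0116), with -0.54, -0.066 and -1.26 within the slides, so that slide 2 showed little of it. With the mean of its 2 probes the difference of the effects was not called (-0.40, adjusted p = 0.183). A dim probe placed on the opposite strand, with a mean of -3.70 on KO FB1 arrays, enters that mean. Whether it reads Slco2b1 RNA was not tested.

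Slco1a1 (OATP1A1), whose expression in mouse liver is higher in males, was the most variable of the 10 genes between mice, with a group SD of 0.97 to 1.59 where the other 9 had 0.11 to 0.57. The probe is at 141856493 to 141856552 on chromosome 6 (mm9, minus strand). It ranged from -3.44 to 1.18 on KO FB1 arrays (median -1.20), and from -0.48 to 1.83 on KO control arrays (median 1.15). WT FB1 arrays ranged from -3.33 to 0.095 (median -1.45) and WT control arrays from -2.48 to 0.21 (median -0.35). Every group overlapped every other. In KO mice the FB1 difference was -1.88 ± 0.69 and was called (adjusted p = 0.0324, 3.68-fold), with -1.79, -3.06 and -0.79 within the slides. The call was lost when any of 7 KO arrays was left out, namely KO FB1 replicates 1, 2, 3 and 4 and KO control replicates 3, 5 and 6, at adjusted p from 0.0549 to 0.0956 and differences from -1.85 to -1.39. It was also lost with the authors' deposited values (-1.22, adjusted p = 0.146), with no filter on dim probes (-1.88, adjusted p = 0.0582) and with the mean of its probes (-1.63, adjusted p = 0.0746). In WT mice the difference was -0.85 ± 0.69 (adjusted p = 0.54). Without toxin KO exceeded WT by 1.69 ± 0.69, which was not called (adjusted p = 0.107) but was called with slide as a block (adjusted p = 0.0488).

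The promoters of 2 carriers that fell without overlap are shown for comparison with that of Abcc4, which rose. They are the 250 bases before the annotated start in the RefSeq table of GRCm38.p6, which held 9 of the 10 genes with 14 starts (Abcc3 was not among them). Capitals mark matches, on either strand, to 5 motifs. These were the nuclear receptor core AGGTCA, the LXR direct repeat (DR4, that core repeated after 4 other bases), the NRF2 core TGACNNNGC, the STAT5 site TTCNNNGAA and the TATA box TATAAA. Of 32851 mouse promoters of this length, 14% held AGGTCA, 0.0152% the direct repeat, 10.2% the NRF2 core, 7.02% the STAT5 site and 12.4% TATAAA. The core AGGTCA also lies within the direct repeat.
Slco1b2 (chr6:141629268-141629517, plus strand): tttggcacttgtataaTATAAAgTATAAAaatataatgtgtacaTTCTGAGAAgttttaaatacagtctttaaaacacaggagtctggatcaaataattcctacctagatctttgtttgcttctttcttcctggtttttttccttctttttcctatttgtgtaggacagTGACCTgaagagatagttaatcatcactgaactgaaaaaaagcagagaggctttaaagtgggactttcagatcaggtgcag
Slco1a4 (chr6:141856221-141856470, minus strand): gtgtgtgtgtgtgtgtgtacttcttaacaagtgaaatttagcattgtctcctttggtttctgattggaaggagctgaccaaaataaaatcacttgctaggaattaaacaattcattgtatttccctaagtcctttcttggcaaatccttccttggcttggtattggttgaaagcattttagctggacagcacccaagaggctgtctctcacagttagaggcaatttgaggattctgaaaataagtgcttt
Abcc4 (chr14:118706220-118706469, minus strand): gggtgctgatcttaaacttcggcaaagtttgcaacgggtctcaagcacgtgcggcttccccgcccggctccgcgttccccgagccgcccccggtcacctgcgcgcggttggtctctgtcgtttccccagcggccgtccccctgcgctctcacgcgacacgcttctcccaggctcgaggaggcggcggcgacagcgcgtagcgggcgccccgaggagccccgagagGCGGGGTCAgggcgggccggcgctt
In Slco1b2 the capitals are, from left to right, TATAAA 2 times, a STAT5 match and AGGTCA on the opposite strand. The Slco1a4 stretch holds none of the 5 motifs. The Abcc4 stretch holds 1 match, the NRF2 core on the opposite strand from 25 to 17 bases before the start, and GC makes up 72% of its bases, against 33.6% in Slco1b2. The other Abcc4 start and the start of Abcc2, which was called in no comparison, hold the NRF2 core as well. Slco2b1, the other carrier that fell without overlap, has 3 starts, of which 1 holds a STAT5 match and the others none of the 5 motifs. Abcb4, which rose as Abcc4 did, holds none of the 5 motifs before its start, and neither does Abcb1a. Before the start of Slco1a1, which fell, lie AGGTCA on both strands and TATAAA on the opposite strand. None of the 14 member promoters held the LXR direct repeat in this window. The matches describe letters and were not set against binding data.

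Liver tissue holds several cell types, and in such samples fewer cells of a type and less RNA per cell cannot be told apart. Beside the falls of the carriers in KO mice, 4 of 10 hepatocyte markers fell and 0 rose with FB1 (median -0.10). Among all genes 24.6% fell and 16.5% rose in that comparison, the background for the other KO marker counts below as well. The summed level of these markers, on a linear scale in multiples of the array's 75th percentile, ranged from 2880 to 4064 on KO FB1 arrays and from 3381 to 4066 on KO control arrays. Values were also scaled to the median of the 10 hepatocyte markers of each array, an alternative chosen after seeing the data. The same 8 of 10 transporter genes were then called in the same directions, while 2795 of all 22088 genes were called higher and 4375 lower. This scaling hardly moved the differences for FB1 in KO mice, whose median over all genes was -0.081 with it and -0.075 without. The kept calls therefore cannot tell what part hepatocyte content had. With this scaling the differences of the FB1 effects were no longer called for Slco1b2 (-0.55, adjusted p = 0.0864) and Abcc4 (1.23, adjusted p = 0.0662), while that of Slco2b1 was. Of 10 recruited macrophage markers 9 rose, their summed level lying between 38.8 and 55.8 on KO FB1 arrays and between 15.1 and 19.4 on KO control arrays. Stellate cell markers rose in 7 of 10 cases (sums 116 to 134 on KO FB1 arrays, 80.9 to 102 on KO control arrays), and sinusoidal endothelium markers fell in 6 of 10 (33.8 to 48.2 on KO FB1 arrays, 50.8 to 76.8 on KO control arrays). In WT mice 5 of 10 recruited macrophage markers rose, where 2.06% of all genes did. Their sums were 16.2 to 23.5 on WT FB1 arrays and 11.6 to 23.7 on WT control arrays. On every array 9 of 10 recruited macrophage markers and all 10 markers of stellate cells and of sinusoidal endothelium were well above background, so none of these lists was near 0. The part of these cell types in the transporter results was not tested.

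**Figure D2:**
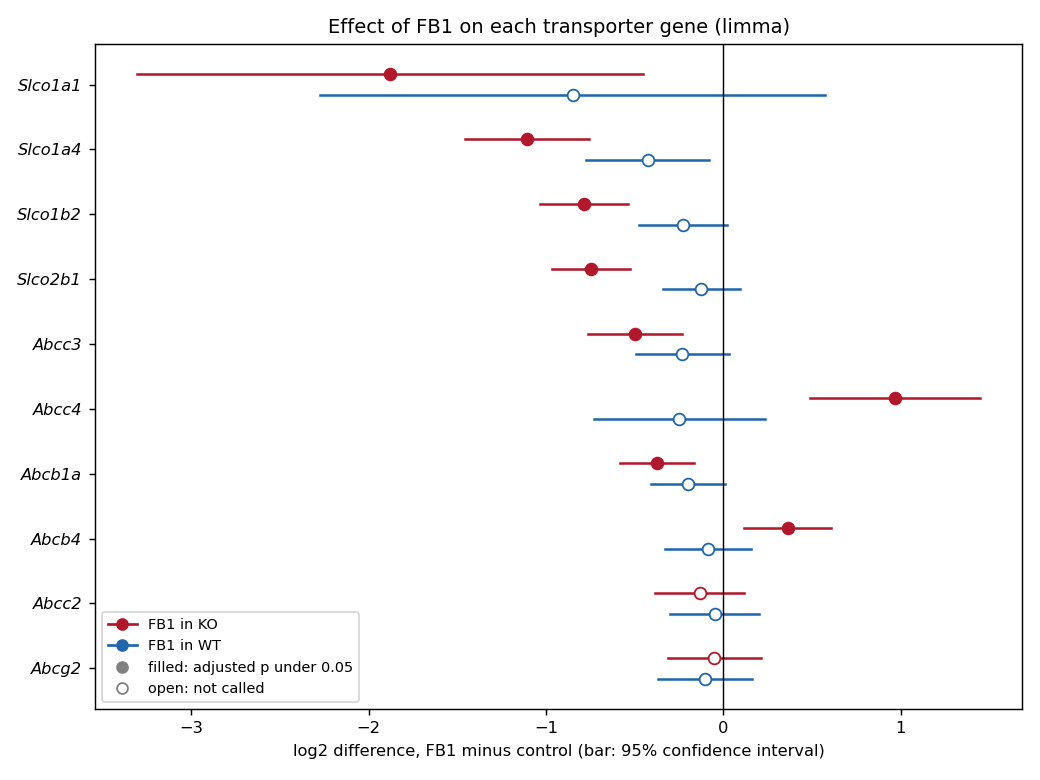
Log2 difference between FB1 and control arrays (x axis) for each transporter gene (y axis), in KO mice (red, upper point of each pair) and in WT mice (blue, lower point), with 95% confidence intervals from limma. Filled points have an adjusted p under 0.05. In KO mice 6 genes lay below 0 and 2 above with filled points, and in WT mice all 10 points are open.

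Of the pumps that return substrates to the blood, Abcc3 fell and Abcc4 rose with FB1 in KO mice. Abcc3 (MRP3) exports glucuronides such as bilirubin glucuronide across the basolateral membrane. The probe lies on chromosome 11 at 94204612 to 94204671 (mm9, minus strand). It ranged from 4.62 to 5.09 on KO FB1 arrays (median 4.94) and from 5.22 to 5.70 on KO control arrays (median 5.38). WT FB1 arrays ranged from 4.61 to 5.30 (median 5.11), and WT control arrays from 4.87 to 5.58 (median 5.26). The KO groups did not overlap, and the WT groups did. FB1 lowered Abcc3 1.41-fold in KO mice (-0.50 ± 0.13, adjusted p = 0.00332), with -0.32, -0.47 and -0.71 within the slides. With the authors' deposited values the difference was -0.29 and not called (adjusted p = 0.0556). In WT mice it was -0.23 ± 0.13 (adjusted p = 0.347), and the genotypes were not called apart with toxin (-0.10, adjusted p = 0.578) or without (0.17, adjusted p = 0.441).

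Abcc4 (MRP4), which exports bile acids with glutathione as well as cyclic nucleotides, was lowest in the KO control group. Its probe is at 118882104 to 118882163 on chromosome 14 (mm9, minus strand). KO FB1 arrays ranged from -1.84 to -0.16 with a median of -0.89, and KO control arrays from -2.61 to -1.31 with a median of -1.94. WT FB1 arrays ranged from -1.38 to -0.39 (median -0.65), and WT control arrays from -0.73 to -0.28 (median -0.54). KO control was the low group and lay below every WT control array, and KO FB1 arrays overlapped both WT groups. Without toxin Abcc4 was 2.66-fold lower in KO than in WT mice (-1.41 ± 0.23, adjusted p = 0.000103; -1.34, -1.47 and -1.42 within the slides). FB1 raised it 1.96-fold in KO mice (0.97 ± 0.23, adjusted p = 0.0020; 0.80, 0.84 and 1.27 within the slides), while the WT difference was -0.25 ± 0.23 (adjusted p = 0.605). With toxin the genotypes differed by -0.20 (95% interval -0.68 to 0.28, adjusted p = 0.552). The FB1 effects differed by 1.22 ± 0.33 (adjusted p = 0.0223), positive within each slide at 0.85, 1.17 and 1.63. That call was lost when values were scaled to the hepatocyte markers (1.23, adjusted p = 0.0662).

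Among the 4 pumps of the canalicular membrane, 1 rose, 1 fell and 2 were not called for FB1 in KO mice. Abcb4 (MDR2 in mice) moves phosphatidylcholine into bile, where it shields the ducts from bile acids. The probe lies on chromosome 5 at 8959108 to 8959167 (mm9, plus strand). It ranged from 5.83 to 6.58 on KO FB1 arrays (median 6.19) and from 5.64 to 6.06 on KO control arrays (median 5.89). WT FB1 arrays ranged from 5.54 to 5.90 (median 5.62) and WT control arrays from 5.43 to 5.96 (median 5.81). KO FB1 was the high group, and 5 of its 6 arrays lay above all KO control arrays. The gene was 1.29-fold higher with FB1 in KO mice (0.36 ± 0.12, adjusted p = 0.0169; 0.72, 0.24 and 0.13 within the slides), and 1.48-fold higher in KO than in WT mice under toxin (0.57 ± 0.12, adjusted p = 0.00070). In WT mice FB1 gave -0.086 ± 0.12 (adjusted p = 0.743), and without toxin the genotypes differed by 0.12 (adjusted p = 0.59). The FB1 effects differed by 0.45 ± 0.17, not called (adjusted p = 0.0907), and called with the authors' deposited values (0.61, adjusted p = 0.0378) or without KO FB1 replicate 1 (0.53, adjusted p = 0.0441).

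Abcb1a, a P-glycoprotein that pumps hydrophobic drugs into bile, is read at 8748075 to 8748134 on chromosome 5 (mm9, plus strand). KO FB1 arrays ranged from -0.93 to -0.36 (median -0.58) and KO control arrays from -0.43 to -0.061 (median -0.19). WT FB1 arrays ranged from -0.92 to -0.42 (median -0.71), and WT control arrays from -0.70 to -0.33 (median -0.47). The KO controls were highest, and each pair of groups overlapped. Abcb1a fell 1.29-fold with FB1 in KO mice (-0.37 ± 0.10, adjusted p = 0.0052; -0.41, -0.34 and -0.37 within the slides) and differed by -0.20 ± 0.10 in WT mice (adjusted p = 0.307). KO exceeded WT by 0.26 ± 0.10 without toxin, not called (adjusted p = 0.0947). The other Abcb1a probe, named by an Ensembl transcript and placed at 8733543 to 8733602, was well above background on 3 KO FB1, 0 KO control, 6 WT FB1 and 5 WT control arrays. On it the KO control mean was 2.06-fold lower than the WT control mean, with KO control values raised to the dimmest well-above-background signal of their arrays. WT control values entered as read, that of the array not well above background included, so 2.06 is not a strict lower bound. WT control replicate 1, at -6.40, lay within the KO control range of -7.83 to -6.05. The limma test used the values as read (-2.04 ± 0.48, adjusted p = 0.00446), not the raised ones. FB1 in KO was not called on this probe (adjusted p = 0.0639). The 2 probes thus disagree, and with their mean the FB1 difference in KO was 0.38 (adjusted p = 0.242).

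The paralog Abcb1b, also a P-glycoprotein, had the sign of that second probe in both comparisons; it is named here after its values were seen. It ranged from -2.55 to 0.81 on KO FB1 arrays (median -1.93), from -2.89 to -2.45 on KO control arrays (median -2.72), from -0.038 to 0.59 on WT FB1 arrays (median 0.40) and from -0.23 to 0.42 on WT control arrays (median 0.0095). It was 6.65-fold lower in KO than in WT mice without toxin (-2.73 ± 0.39, adjusted p = 1.52e-05) and 3.10-fold lower with toxin (-1.63 ± 0.39, adjusted p = 0.00224). FB1 raised it in KO mice 2.64-fold (adjusted p = 0.00596), and the FB1 effects were not called apart (adjusted p = 0.22). Whether a probe of one of these paralogs also binds RNA of the other was not tested.

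Abcc2 (MRP2), which exports bilirubin glucuronides and glutathione conjugates into bile, is read on chromosome 19 at 43912079 to 43912138 (mm9, plus strand). It ranged from 2.97 to 3.57 on KO FB1 arrays (median 3.16), from 3.25 to 3.52 on KO control arrays (median 3.34), from 3.31 to 3.58 on WT FB1 arrays (median 3.48) and from 3.02 to 3.73 on WT control arrays (median 3.65). All groups overlapped. Abcc2 was called in none of the 5 comparisons, and FB1 gave -0.13 in KO mice (95% interval -0.38 to 0.12, adjusted p = 0.403) and -0.049 in WT mice (95% interval -0.30 to 0.20, adjusted p = 0.87). Abcg2 (BCRP), a pump for sulfated conjugates and urate, was likewise not called in any comparison. Its probe is at 58642312 to 58642371 on chromosome 6 (mm9, plus strand). It ranged from 3.01 to 3.66 on KO FB1 arrays (median 3.30), from 3.08 to 3.63 on KO control arrays (median 3.40), from 2.90 to 3.52 on WT FB1 arrays (median 3.11) and from 2.96 to 3.50 on WT control arrays (median 3.30). The FB1 difference was -0.050 in KO mice (95% interval -0.31 to 0.21, adjusted p = 0.783) and -0.10 in WT mice (95% interval -0.37 to 0.16, adjusted p = 0.711). In KO mice the differences of both genes changed sign under another scaling, to 0.0024 for Abcc2 and 0.081 for Abcg2 after quantile normalisation, so no direction is given.

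**Figure D3:**
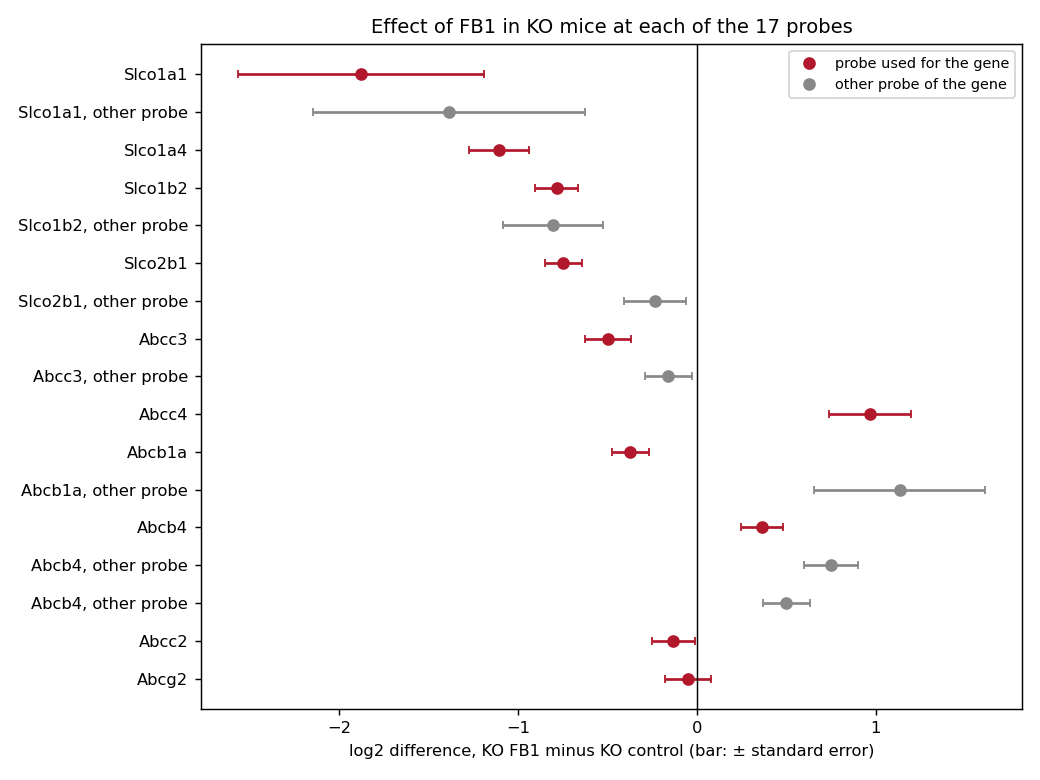
Log2 difference between KO FB1 and KO control arrays (x axis) at each of the 17 probes of the 10 genes (y axis), with bars of ± standard error from limma fitted over all tested probes. Red points are the probes used for the genes and grey points their other probes. The probes of Slco1a1, Slco1b2 and Abcb4 lay on the same side of 0, and those of Abcb1a on opposite sides.

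A second probe gave a check for 6 of the 10 genes, with p-values adjusted over the 33417 tested probes. Abcb4 rose with FB1 in KO mice on both of its other probes (0.50 ± 0.13, adjusted p = 0.00373, and 0.75 ± 0.15, adjusted p = 0.000477). Slco1b2 fell on its other probe too (-0.80 ± 0.28, adjusted p = 0.025). For Slco1a1 the other probe gave -1.39 ± 0.76 (adjusted p = 0.155). The weaker probes of Abcc3 (-0.16 ± 0.13, adjusted p = 0.36) and Slco2b1 (-0.23 ± 0.17, adjusted p = 0.302) had the sign of the probe used without passing the test. That second Slco2b1 probe is placed on the plus strand, opposite to the probe used, and carries the name of a cDNA clone. Which transcript each probe reads is not given here, since no annotation of the mm9 build was used.

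Between genotypes without toxin, limma called 2 of the 10 genes, Slco1a4 higher and Abcc4 lower in KO mice, where 15.2% of all genes were called, 7.21% higher and 8.02% lower. At an unadjusted p under 0.05 there were 4 of 10, with Slco1a1 and Abcb1a added. The groups did not overlap for 1 of the 10, Abcc4, against 7.93% of all genes. Under toxin 3 of 10 were called, Slco1b2 and Slco2b1 lower and Abcb4 higher in KO mice, against 32.8% of all genes (18.3% lower, 14.5% higher), and for 1 of them, Slco2b1, the groups did not overlap (15.2% of all genes). Beside these differences without toxin, 8 of 9 tested resident macrophage markers were lower in KO mice, with sums of 12.3 to 20.5 on KO control arrays and 54.1 to 166 on WT control arrays. The median of the 10 hepatocyte markers was -0.016. The part of resident macrophages in the 2 calls was not tested. The 2 genes called without toxin were therefore other genes than the 3 called with it. Both comparisons share their mice with the FB1 comparisons, so they are not independent of them.

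**Figure D4:**
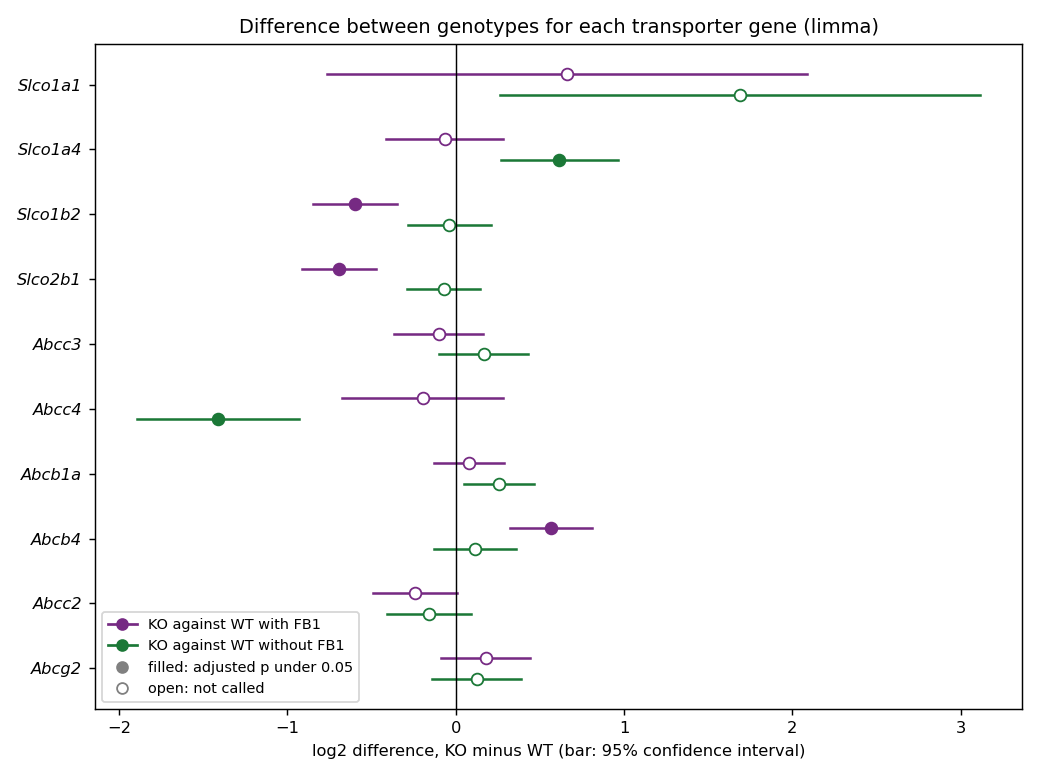
Log2 difference between KO and WT arrays (x axis) for each transporter gene (y axis), with toxin (purple, upper point) and without toxin (green, lower point), with 95% confidence intervals from limma. Filled points have an adjusted p under 0.05: Slco1b2, Slco2b1 and Abcb4 with toxin, and Slco1a4 and Abcc4 without toxin.

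Other carriers and pumps were counted from fixed lists, beside the background of 41.2% called for FB1 in KO mice. Of 10 tested other uptake carriers, 5 fell and 2 rose (median -0.22). The bile acid CoA ligase and transport protein Slc27a5 fell (-0.67 ± 0.11, adjusted p = 4.08e-05), as did the phosphate and urate carrier Slc17a3 (-0.61 ± 0.10, adjusted p = 5.42e-05), and Slco3a1, a carrier of prostaglandins, rose (0.63 ± 0.15, adjusted p = 0.00149). Of 17 other export pumps, 7 fell and 5 rose (median -0.22). They included Abcc6, which releases ATP from hepatocytes (-1.03 ± 0.089, adjusted p = 3.45e-08), Abcg5, a subunit of the sterol exporter of bile (-1.46 ± 0.19, adjusted p = 4.62e-06), and Abcc12 (2.84 ± 0.37, adjusted p = 3.29e-06). In WT mice the medians for FB1 were 0.017 over the uptake carriers and -0.0024 over the pumps.

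Proteins that hold pumps at the canalicular membrane or regulate their genes were counted too. Of 10 canalicular anchors and trafficking genes, 3 rose and 1 fell with FB1 in KO mice. Among all genes 16.5% rose, 24.6% fell and 41.2% were called either way, so the number of anchors called was near the background. The membrane fusion protein Stx3 rose most by p (1.49 ± 0.15, adjusted p = 1.95e-07), and the actin linkers Msn (0.69 ± 0.11, adjusted p = 2.42e-05) and Ezr (0.50 ± 0.15, adjusted p = 0.0106) rose as well. Of 16 regulators of transporter genes, 8 fell and 1 rose (median -0.31), where 24.6% of all genes fell and 16.5% rose. The falls included the hepatocyte factor Cebpa (-0.56 ± 0.11, adjusted p = 0.000518) and the fatty acid receptor Ppara (-0.74 ± 0.17, adjusted p = 0.00108). In WT mice the median of the regulators for FB1 was -0.12. Without toxin, 3 of the 16 were lower in KO than in WT mice, where 8.02% of all genes were lower, among them Nr5a2 (LRH-1, -1.44 ± 0.075, adjusted p = 9.3e-13) and Nr1i3, which encodes CAR (-0.46 ± 0.16, adjusted p = 0.0466).

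Genes that respond to the receptors CAR and PXR moved with FB1 in KO mice in all 12 tested cases, 11 lower and 1 higher (median -0.86). Among all genes 24.6% were lower and 16.5% higher in this comparison. The conjugating enzyme Gstt1 (-0.89 ± 0.094, adjusted p = 3.41e-07) and the carboxylesterase Ces2a (-0.84 ± 0.15, adjusted p = 0.000127) fell, and Cyp2c55 rose (2.78 ± 0.37, adjusted p = 5.49e-06). In WT mice 1 of the 12 was called for FB1, where 2.89% of all genes were: Cyp2b10, a CAR-induced cytochrome P450, was higher with the toxin (1.37 ± 0.35, adjusted p = 0.03), while in KO mice it fell (-1.13 ± 0.35, adjusted p = 0.0118). Without toxin, 4 of the 12 were higher and 2 lower in KO than in WT mice, against 7.21% higher and 8.02% lower of all genes, and Cyp2b10 was higher by 8.99 ± 0.35 (adjusted p = 4.04e-15). Cyp2b genes are close in sequence, and whether a probe reads 1 of them alone was not tested. Of 11 NRF2 target genes, 4 rose and 0 fell with FB1 in KO mice, where 16.5% of all genes rose and 24.6% fell. Srxn1, which repairs peroxiredoxins, was higher by 1.14 ± 0.18 (adjusted p = 3.36e-05), and Osgin1 by 1.74 ± 0.33 (adjusted p = 0.00027). In WT mice FB1 raised Osgin1 (1.23 ± 0.33, adjusted p = 0.0453) and lowered G6pdx (-0.53 ± 0.14, adjusted p = 0.0341), 2 calls of 11. Without toxin 3 of the 11 were lower in KO mice, against 8.02% of all genes, among them Hmox1, which breaks down haem (-1.86 ± 0.30, adjusted p = 9.3e-05). Of genes with known sex bias in mouse liver, 10 of 15 female-biased and 7 of 15 male-biased ones fell with FB1 in KO mice. In the same comparison 1 female-biased and 4 male-biased ones rose, against 24.6% lower and 16.5% higher of all genes. Examples are the sulfotransferase Sult3a1 of the female-biased list (-7.23 ± 0.29, adjusted p = 1.61e-13) and the oxysterol hydroxylase Cyp7b1 of the male-biased list (-2.09 ± 0.19, adjusted p = 4.28e-08). The female-biased list shares members with the CAR and PXR list, among them Cyp2b9 and Cyp2b13, so the counts of these lists are not separate observations.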

How the data were processed

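Liver RNA of 24 mice was hybridised to 1-colour Agilent arrays, 8 on each of 3 slides with 2 arrays of every group per slide, so slide and group are balanced. Spot intensities were extracted by the authors with Agilent Feature Extraction 10.10.1.1, per the file headers, and are deposited as the processed signal, which is background-subtracted and not normalised between arrays. The submitters' processing notes also name limma. The authors' deposited table of normalised log2 values had column medians of 7.858 to 7.863, and each of its 24 columns matched its own array best. The sources used here do not give how those values were normalised; they served as an alternative.

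Control and outlier spots were left out, the 75th percentile of log2 processed signal was subtracted per array, and replicate spots were averaged per probe. Testing required a probe to be well above background on every array of at least 1 group and to have 4 or more unmarked values in each group, which kept 33417 of 56605 probes. The brightest tested probe stood for a gene, giving 22088 genes, 7451 of which had several tested probes. The 4 groups were fitted together with limma 3.58.1 in R 4.3.3, without covariates, with Benjamini-Hochberg adjustment over all genes. Levels are given as lowest, median and highest of 6 arrays. The number of arrays limits the precision. The p-values set differences of group means against the spread between arrays, each of which read 1 mouse.

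The 10 genes and all gene lists were chosen with earlier results of these data known. Named outside the 10 genes are at most the 3 called genes of smallest p per list and comparison and the deleted genes. Abcb1b, Abcb11 and Slc10a1 were added after their values were seen. Probe positions are those of the mm9 design, and promoters came from RefSeq (GRCm38.p6). Alternatives were other normalisation, background correction, filters, probe rules, slide or replicate blocks, array weights, single slides, and leaving out each array. 1 named gene and its motif are not reported here.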

Additional observations from a re-analysis of the deposited data

Results flagged for a closer look

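For 3 of the 10 genes the FB1 effect in KO mice differed from that in WT mice by a direct test in limma. The difference, KO minus WT, was -0.56 for Slco1b2 (adjusted p = 0.0386), -0.62 for Slco2b1 (adjusted p = 0.0116) and 1.22 for Abcc4 (adjusted p = 0.0223). All 3 kept their sign within each slide. In 40 groups of 6 arrays, Dixon's test marked 0 single arrays as outlying.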

How the results depend on the processing

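The 8 calls for FB1 in KO mice became 6 with the authors' deposited values and 6 with the mean of a gene's probes. Over all genes the authors' values gave 4016 higher and 4183 lower, and the mean of probes 3718 and 5239, against 3654 and 5443. Of the 8 calls, 5 were 1.5-fold or more, and the share of all genes at that size was not counted. In single slides, with 2 arrays a group, there were 4, 0 and 4 calls in slides 1, 2 and 3. Over all 22088 genes slide 1 called 1079 higher and 892 lower, slide 2 called 214 and 91, and slide 3 called 2176 and 2729. Fewer genes were thus called in every single slide than with all mice. For KO against WT with toxin, slides 1 and 2 gave 1 and 0 calls, where all mice gave 3. Over all genes slide 1 called 768 higher and 847 lower and slide 2 called 256 and 449, against 3213 and 4033. For KO against WT without toxin the slides gave 1, 0 and 0, where all mice gave 2. All-gene calls there were 271 higher and 453 lower, 169 and 255, and 335 and 550, against 1592 and 1771. For the difference of the FB1 effects the split over all mice was 1 higher and 2 lower. Slides 1 and 2 gave 0 calls each, where over all genes they called 4 higher and 2 lower, and 1 and 2. The mean of probes gave 1 call (Abcc4, higher), beside 960 higher and 1101 lower of all genes. Hepatocyte scaling gave 1 (Slco2b1, lower), beside 339 higher and 499 lower. The authors' values gave 2 higher and 2 lower, and over all genes 1130 higher and 795 lower, against 985 higher and 1070 lower. In WT mice FB1 gave 0 calls under every alternative run. With the mean of probes, Abcb1a was reversed to 0.38 for FB1 in KO mice and to -0.89 for KO against WT without toxin; the dim second probe enters that mean. Leaving out 1 array at a time gave 7 to 8 calls for FB1 in KO mice, 0 for FB1 in WT mice, 3 for KO against WT with toxin, 2 without, and 2 to 4 for the difference. The cause of these changes was not tested.

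Mice with the same replicate number in 2 groups did not deviate together: their correlations lay between -0.20 and 0.24, 3 of 24 were over 0.1, and 3 of 24 were highest with their own number. With the replicate number as a block the counts were 8 for FB1 in KO mice, 0 for FB1 in WT mice, 3 for KO against WT with toxin, 3 without (Slco1a1 added), and 2 for the difference (Slco1b2 lost). A fit of the compared groups alone has no value for the difference.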

Other observations

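Single arrays held the extremes of several transporter genes at once. Replicate 6 of WT FB1 was the highest of its group for 7 of the 10 genes, replicate 1 of KO control the lowest for 6, and replicate 6 of WT control the lowest for 6.

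The bile acid exporter Abcb11 fell with FB1 in KO mice (-0.34 ± 0.10, adjusted p = 0.00644), and the bile acid uptake carrier Slc10a1 was not called (0.0045, adjusted p = 0.969). Both were named after their values were seen.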
